A study of Mus musculus with 25 samples.

Results

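The genes described here are 36 components of the unfolded protein response and of protein folding in the endoplasmic reticulum (ER), followed by symbol through 4 tables of islet RNA from mice. All 36 were present in each table, out of 17885 genes that occur in at least 1 of them. They were kept apart by role: 15 chaperones and folding enzymes, 7 factors of ER-associated degradation, 7 genes of the ATF4 branch, 4 sensors and transducers (Xbp1, Atf6, Ern1 and Eif2ak3), and 3 genes of protein translocation and of the ER calcium pump.

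Beta cells make and secrete insulin in large amounts, and the precursor folds in the ER with chaperones and disulphide-forming enzymes. When unfolded protein accumulates, 3 sensors in the ER membrane respond. IRE1 (encoded by Ern1) splices the Xbp1 transcript, ATF6 is cut to release a transcription factor, and PERK (encoded by Eif2ak3) slows translation and favours translation of ATF4. ATF6 and spliced XBP1 drive chaperone and degradation genes, while ATF4 drives genes of amino acid supply and, with prolonged activity, genes linked to cell death such as Ddit3.

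The series sequenced messenger RNA of pancreatic islets to study BAF60C, a subunit of the SWI/SNF chromatin remodelling complex encoded by Smarcd3. Values exist for 19 libraries in 8 groups, and 6 libraries from mice on chow were not analysed here. Per the labels, every library is islet RNA pooled from a minimum of 3 mice.

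In the HFD table, 2 libraries labelled BcBKO (a beta-cell-directed ablation with Pdx1-cre) stand against 2 labelled flox/flox, all from mice on the diet named HFD for 3 months. Pdx1 is also active in the early pancreas, so Pdx1-cre lines can recombine outside beta cells. In the PBS table, 2 KO_REG3B-Fc and 2 KO_PBS libraries stand beside 2 CTR_PBS libraries. In the db table, 2 db_REG3B libraries stand against 2 db_GFP libraries. The last table holds 5 libraries labelled WT. The labels give no ages, do not say which gene KO removes or what db, CTR and Fc stand for, and do not say how REG3B, GFP or PBS were given. REG3B is a secreted lectin of the pancreas and gut.

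Smarcd3 was low and did not check the labels. Its level was 3.11 and 2.40 FPKM in the libraries labelled BcBKO against 2.57 and 2.55 FPKM in flox/flox. In the PBS table its level was 1.28 and 1.21 FPKM under KO_REG3B-Fc and 0.75 and 1.09 FPKM under KO_PBS, against 1.03 and 1.15 FPKM under CTR_PBS. These are whole-gene values of whole islets, so a deleted exon would not have to lower them. Reg3b transcripts were not higher under the REG3B label: 10.4 and 9.98 FPKM in db_REG3B against 21.8 and 26.5 FPKM in db_GFP.

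FPKM, a fragment count divided by transcript length and library size, allows levels of different genes to be set side by side. The depth of the libraries is unknown. Beta cell genes took 28.6 to 71.7% of summed FPKM in the 19 libraries. Digestive enzyme genes of acinar cells took 0.0623 to 46.2%. They exceeded the beta cell genes in WT replicate 2 (44.1 against 30.5%) and in WT replicate 3 (46.2 against 28.6%). Between replicates the robust SD of the log2 ratio was 0.05 to 0.08 in the PBS and db tables, 0.28 in the HFD table and 0.09 to 0.87 among WT libraries, for genes of high level. Changes are log2 differences of median-scaled FPKM plus 1, in which each library is divided by its median ratio to the average library of its table. They were tested with limma and Benjamini-Hochberg adjustment over all genes of the comparison, with a threshold of 0.05. "Rose" and "fell" are used for changes past that threshold. Replicates are libraries with separate labels, so p-values measure only the spread between these libraries, which may be technical. In bulk islet RNA, fewer cells of a type and less RNA per cell cannot be told apart.

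The promoters show how the roles differ in sequence. The ER stress element (ERSE), bound by ATF6 and XBP1 together with the factor NF-Y, is CCAAT, 9 bases of any kind and then CCACG. ERSE-II is ATTGG, 1 base of any kind and then CCACG. The C/EBP-ATF response element (CARE) bound by ATF4 was searched as TGATGNAA, and the unfolded protein response element (UPRE) bound by XBP1 as TGACGTGG. Both strands were searched from 250 bases before to 50 bases after the start site in the RefSeq promoter table (GRCm38.p6). The table matched 31 of the 36 genes by symbol, the others being Hyou1, Manf, Derl1, Atf6 and Atp2a2.

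ERSE was found in 29.0% of the matched genes (9 of 31), against 0.137% of all 27025 genes in the promoter table (37 genes). Of 13 matched chaperone genes 7 held it, as did Derl3 and Syvn1 among the degradation genes. ERSE-II was found in Herpud1 and Dnajb11, 6.45% of the matched genes against 0.0444% of all genes. CARE was found in 5 of 31 genes (16.1%, against 4.51% of all genes), and 4 of the 5 belong to the ATF4 branch: Atf3, Trib3, Chac1 and Asns. The fifth is Herpud1, which thus held both kinds of element. UPRE was found in 0 of 31, against 0.714% of all genes. A match describes letters in a window, and binding was not measured in these data.

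The windows below belong to genes that held an element and that recur in the results. Of the genes with the largest changes, Sel1l and Edem1 held none of these elements and Atp2a2 was not matched to a promoter. Each runs 5′ to 3′ along the strand of its gene, and capitals mark ERSE, ERSE-II or CARE, which reads as the reverse complement where it lies on the opposite strand. Hspa5 lies at chr2:34771995-34772073 (plus strand), Creld2 at chr15:88819490-88819568 (plus), Derl3 at chr10:75893212-75893290 (plus), Herpud1 at chr8:94386287-94386417 (plus), Chac1 at chr2:119351019-119351086 (plus) and Asns at chr6:7693210-7693262 (minus), all in GRCm38.p6.
Hspa5: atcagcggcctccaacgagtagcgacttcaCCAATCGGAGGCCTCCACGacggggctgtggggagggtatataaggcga
Creld2: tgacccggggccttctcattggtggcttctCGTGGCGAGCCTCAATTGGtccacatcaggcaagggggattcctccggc
Derl3: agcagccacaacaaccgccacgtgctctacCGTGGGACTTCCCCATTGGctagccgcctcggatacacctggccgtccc
Herpud1: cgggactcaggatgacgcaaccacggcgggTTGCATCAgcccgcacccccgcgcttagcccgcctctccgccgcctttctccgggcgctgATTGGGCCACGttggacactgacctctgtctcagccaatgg
Chac1: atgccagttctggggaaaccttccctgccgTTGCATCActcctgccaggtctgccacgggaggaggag
Asns: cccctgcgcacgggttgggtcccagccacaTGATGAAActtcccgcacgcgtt
The ERSE of Hspa5 begins 65 bases before the start site on the plus strand, while those of Creld2 and Derl3 lie on the opposite strand and begin 126 and 156 bases before it. In Herpud1 the CARE begins 112 bases and the ERSE-II 52 bases before the start site.

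The WT libraries give the level of each gene without a treatment in the label. Chaperones led the order: the median over 5 libraries was 417 FPKM for Hspa5 (BiP, the main ER chaperone of the HSP70 family), 360 FPKM for Calr and 354 FPKM for P4hb, a disulphide isomerase. Degradation factors lay lower, with medians from 14.6 FPKM for Derl2 to 223 FPKM for Herpud1, an ER membrane protein that organises the degradation complex. Within the ATF4 branch, Atf4 stood at a median of 148 FPKM, while Trib3 (3.09 FPKM) and Atf3 (0.66 FPKM) closed the list. Among the sensors, Xbp1 had a median of 144 FPKM, against 10.7 to 14.2 FPKM for Ern1, Eif2ak3 and Atf6. The median over all 36 genes was 56.8 FPKM. Along this order, 33 of 35 neighbouring pairs had overlapping library ranges, and the exceptions were the steps between Pdia4 and Derl3 and between Ern1 and Trib3.

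**Figure D1:**
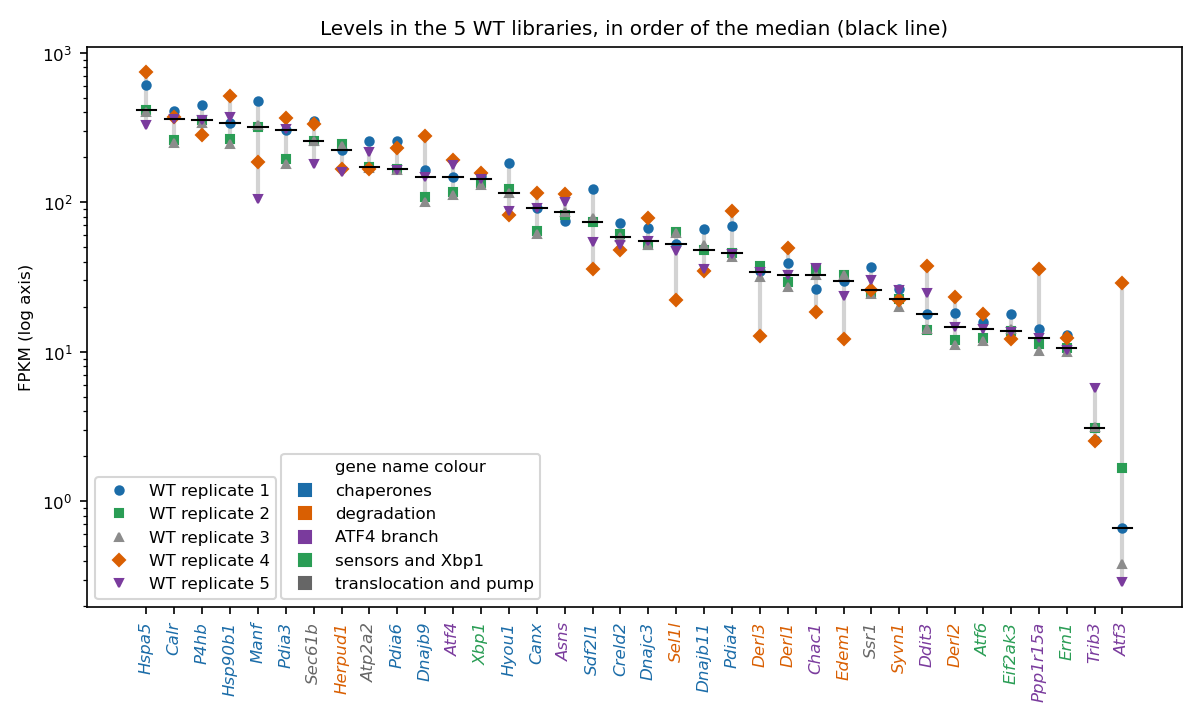
FPKM (log axis) of the 36 genes in the 5 WT libraries, ordered by the median (black line), with grey bars from the lowest to the highest library and gene names coloured by role. Hspa5 leads at a median of 417 FPKM and Atf3 ends the order at 0.66 FPKM, where WT replicate 4 stands at 28.8 FPKM.

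The WT libraries were not alike. Xbp1 varied least in its role on the deposited scale, at 150, 134, 130, 158 and 144 FPKM in replicates 1 to 5. Hspa5 measured 604, 417, 403, 739 and 330 FPKM. Atf3, an early stress-induced transcription factor, measured 0.66, 1.66, 0.38, 28.8 and 0.29 FPKM. Replicate 4 was the high library for Atf3, for Ddit3 (37.4 FPKM, against 14.0 to 24.6 FPKM in the others) and for Ppp1r15a, a phosphatase subunit that restores translation (35.95 FPKM, against 10.1 to 14.2 FPKM). The summed level of 8 immediate early genes, which are switched on within minutes by many stimuli, was 525 FPKM there and 30.4 to 110 FPKM in the other 4 libraries. Its part in these levels was not tested.

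Among the 7 degradation genes, 3 were lowest in replicate 4 on the deposited scale. Sel1l, a scaffold of the ubiquitin ligase complex, measured 52.3, 63.6, 62.6, 22.3 and 47.3 FPKM in WT replicates 1 to 5. Edem1, a mannosidase-like factor that hands glycoproteins to degradation, measured 29.9, 32.6, 32.8, 12.3 and 23.7 FPKM. Derl3, a derlin of the retrotranslocation machinery, measured 34.6, 37.2, 31.8, 12.8 and 34.1 FPKM. The others differed on that scale: Derl1 and Derl2 were highest in replicate 4, at 49.5 and 23.2 FPKM, while Herpud1 was lowest in replicate 5 and Syvn1 in replicate 3. After median scaling, Herpud1 and Syvn1 were lowest in replicate 4 too. Herpud1 stood at 133 there and at 138 in replicate 5, and Syvn1 at 17.8 and 22.4. The acinar list, digestive enzymes and their transcription factors, took 33.9, 44.1, 46.2, 6.06 and 29.6% of summed FPKM in the same order, and was likewise lowest in replicate 4. All 22 acinar genes with a value were above 0 in every WT library, and their part in the levels of Sel1l, Edem1 and Derl3 was not tested. After median scaling, the highest library exceeded the lowest by 4.56 times for Sel1l, 4.35 times for Edem1 and 4.43 times for Derl3, against a median of 1.81 times over the 36 genes. Manf, a secreted ER stress protein, reached 4.79 times, with 477, 318, 330, 185 and 106 FPKM. Canx, Atf4 and Atf6 varied little, at 1.18, 1.13 and 1.24 times.

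After median scaling, the db table showed the most calls among these genes. All 15 chaperones, all 7 degradation genes, 6 of 7 ATF4 branch genes, Xbp1, Atf6 and the 3 translocation and pump genes rose in db_REG3B relative to db_GFP. In all, 33 of 36 genes rose and 0 fell. Of all 12507 genes tested 45.3% were called, 18.6% higher and 26.7% lower. The median change of the 36 genes was 0.35, against -0.01 over all genes. As a share of summed FPKM, however, the 36 genes together were not higher. They took 0.832 and 0.827% in db_REG3B, against 0.843 and 0.835% in db_GFP. Summed FPKM itself was higher in db_REG3B, at 1.17e+06 and 1.20e+06 against 9.34e+05 and 9.44e+05 in db_GFP. At an unadjusted p under 0.05, 34 genes were higher and 0 lower (52.7% of all genes passed in either direction). The scaled values of the groups did not overlap for 35 of 36 genes, against 73.3% of all genes. The authors' deposited table called 33 higher and 0 lower, where 27.4% of its genes were called, 12.3% higher and 15.1% lower. The genes that did not pass were Atf3 (0.12, adjusted p = 0.151), Ern1 (0.14, adjusted p = 0.0601) and Eif2ak3 (0.03, adjusted p = 0.641). On the deposited scale, where the median gene shifted by -0.06, 30 of the genes rose and 43.1% of all genes were called, 12.2% higher and 30.8% lower. Leaving out a db_GFP library left 28 or 30 rises.

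Among chaperones, Hspa5 measured 1275 and 1323 FPKM in db_REG3B, against 911 and 937 FPKM in db_GFP (log2 change 0.55 ± 0.03 SE, limma adjusted p = 1.26e-05). Sdf2l1, a partner of ER DnaJ proteins, measured 222 and 234 FPKM in db_REG3B, against 139 and 140 FPKM in db_GFP (0.76 ± 0.03, adjusted p = 2.28e-06). Creld2, an ER stress-induced disulphide isomerase, measured 146 and 146 FPKM in db_REG3B, against 95.8 and 99.6 FPKM in db_GFP (0.63 ± 0.04, adjusted p = 1.2e-05). For each of these genes both db_REG3B libraries lay above both db_GFP libraries, with gaps far wider than between replicates. Hyou1, an HSP110-type exchange factor of BiP, measured 396 and 421 FPKM in db_REG3B against 291 and 278 FPKM in db_GFP (0.58 ± 0.04, adjusted p = 1.41e-05). The smallest chaperone changes were those of Pdia3 (0.12, adjusted p = 0.031) and Calr (0.14, adjusted p = 0.0164), the oxidoreductase and lectin that fold glycoproteins. Both lost the call on the deposited scale, at adjusted p = 0.183 and 0.0987.

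Among degradation genes, Derl3 measured 29.4 and 33.6 FPKM in db_REG3B, against 20.8 and 17.5 FPKM in db_GFP (0.75 ± 0.08, adjusted p = 0.000269). Sel1l measured 74.6 and 77.6 FPKM against 62.9 and 60.2 FPKM in db_GFP (0.36 ± 0.04, adjusted p = 0.000255). Herpud1 measured 248 and 271 FPKM in db_REG3B against 211 and 210 FPKM in db_GFP (0.35 ± 0.04, adjusted p = 0.000246). No degradation gene overlapped between the groups, which also held for 73.3% of all genes, and the 7 changes spanned 0.26 to 0.75. Of 20 acinar genes tested 14 fell and 3 rose. The 23 acinar genes with a value summed to 731 and 763 FPKM in db_REG3B and 1282 and 1268 FPKM in db_GFP, at most 0.137% of a library, and their part in the degradation gene levels was not tested.

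In the ATF4 branch, Trib3, a pseudokinase that restrains the pathway, measured 49.2 and 51.1 FPKM in db_REG3B, against 30.8 and 30.3 FPKM in db_GFP (0.75 ± 0.04, adjusted p = 6.29e-06). Ddit3, which encodes the stress transcription factor CHOP, measured 88.1 and 92.0 FPKM in db_REG3B, against 60.2 and 60.4 FPKM in db_GFP (0.63 ± 0.04, adjusted p = 9.32e-06). Asns, asparagine synthetase, measured 196 and 204 FPKM in db_REG3B against 159 and 158 FPKM in db_GFP (0.39 ± 0.03, adjusted p = 6.53e-05). The groups did not overlap for any of the 7 genes of this branch, as for 73.3% of all genes. Xbp1 measured 172 and 179 FPKM in db_REG3B against 154 and 159 FPKM in db_GFP (0.22 ± 0.04, adjusted p = 0.00217), and Atf6 34.4 and 35.6 FPKM against 28.2 and 27.7 FPKM in db_GFP (0.37 ± 0.04, adjusted p = 0.000314). Gene-level FPKM does not separate spliced from unspliced Xbp1.

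Atp2a2, the SERCA2 pump that fills the ER with calcium, had the largest change of the 36 genes in this table. It measured 635 and 678 FPKM in db_REG3B, against 393 and 382 FPKM in db_GFP (0.81 ± 0.04, adjusted p = 1.91e-06). Sec61b, a subunit of the translocation channel, and Ssr1, of the translocon-associated complex, changed by 0.17 and 0.15 (adjusted p = 0.00794 and 0.0137). Ssr1 lost its call on the deposited scale and without either db_GFP library, at adjusted p of 0.0617 to 0.111, and Sec61b without db_GFP replicate 2 (adjusted p = 0.0535).

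**Figure D2:**
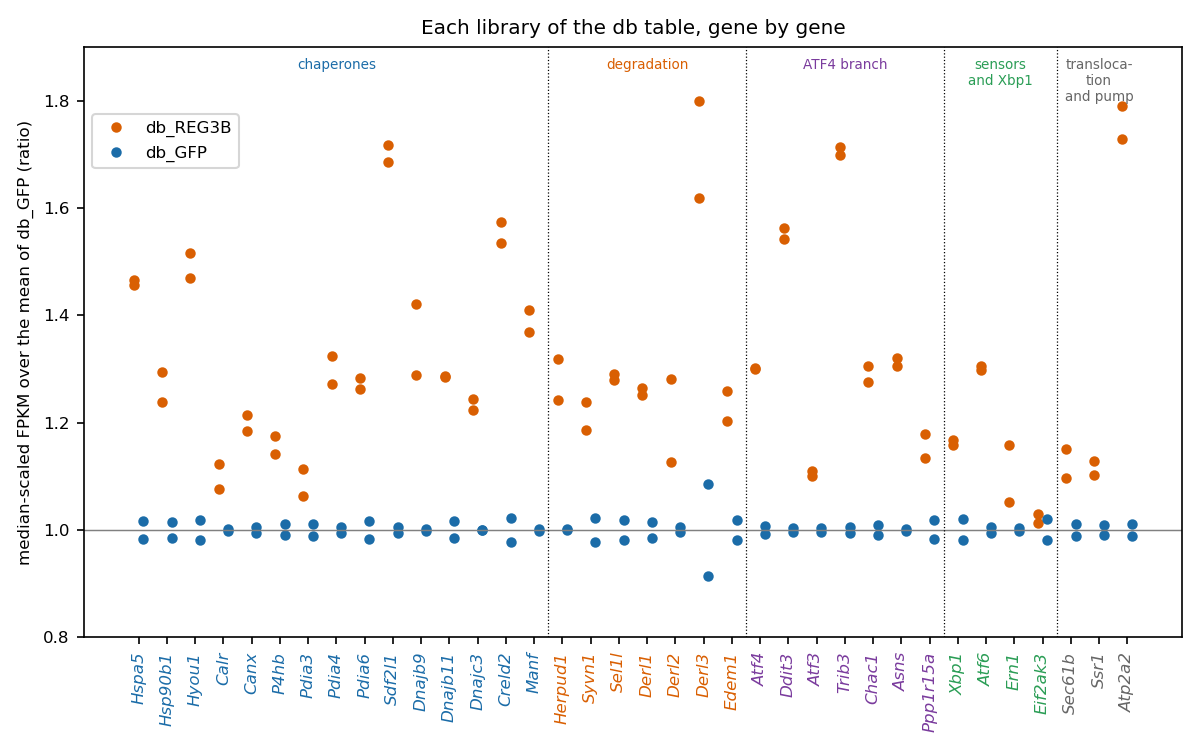
Median-scaled FPKM of each db library divided by the mean of db_GFP, gene by gene, with 2 points per group (db_REG3B left, db_GFP right) and gene names coloured by role. Points of db_REG3B lie above those of db_GFP for 35 of 36 genes, and Eif2ak3 is the exception.

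Other genes of these pathways, taken from 6 further lists, moved less uniformly. Of 92 tested genes 52 rose and 8 fell, where 18.6% of all genes were called higher and 26.7% lower. The counts of each list below stand against the same shares. Of 23 ATF4 targets outside the 36 genes 22 rose and 1 fell, with a median of 0.40, among them the hormone gene Fgf21 (2.78 ± 0.0424 FPKM in db_REG3B and 1.005 ± 0.361 FPKM in db_GFP, SD, n = 2; 0.96, adjusted p = 0.000601) and the stress gene Nupr1 (0.96, adjusted p = 7.36e-07). Of 12 oxidative folding genes 4 rose and 2 fell, led by the ER oxidases Ero1lb (0.92, adjusted p = 6.48e-07) and Ero1l (0.84, adjusted p = 3.15e-06). Among 16 translocation genes 11 rose and 1 fell, among 15 further degradation genes 8 rose and 1 fell, and among 11 further cochaperones 3 rose and 2 fell. Of 15 signalling and cell death genes 4 rose, Bax among them (0.36, adjusted p = 0.000182), and Bak1 fell (-0.72, adjusted p = 0.000117). BAX and BAK are the effectors of mitochondrial cell death.

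Cell type markers moved with this comparison. The beta cell list took 59.5 and 59.8% of summed FPKM in db_REG3B, against 40.6 and 40.8% in db_GFP, and 10 of its 11 genes rose. All 9 tested endothelial genes fell, as did 8 of 9 stellate cell genes and 7 of 7 myeloid and T cell genes, with medians of -0.78, -2.15 and -0.90. Of 9 other hormone genes 7 fell. No defining beta cell marker was at 0 in either group. The part of these shifts in the rise of the folding genes was not tested.

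In the PBS table the libraries differed in scale. The median gene shifted by -0.44 on the log2 scale of the deposited FPKM between KO_PBS and CTR_PBS, and by 0.53 between KO_REG3B-Fc and KO_PBS. Changes below are relative to that shift, and the counts of folding and pathway genes are also given without scaling. With that shift, a gene that falls after scaling for KO_PBS against CTR_PBS is bound to fall further without it. The same applies to rises for KO_REG3B-Fc against KO_PBS. In those directions, holding on both scales is therefore no added support. Among the 36 genes, 6 of 6 such falls and 7 of 7 such rises were kept. Each pair of comparisons in this table shares a group of libraries, so their changes are not independent. KO_PBS also stood apart in cell markers. As a share of summed FPKM the acinar list made up 15.2 and 15.3% under KO_REG3B-Fc, 35.7 and 36.8% under KO_PBS and 17.6 and 17.3% under CTR_PBS. For the beta cell list the shares were 61.0 and 60.7% under KO_REG3B-Fc, 40.9 and 40.2% under KO_PBS and 60.4 and 61.3% under CTR_PBS. Genes of B and plasma cells, another secretory lineage, had sums of 8.62 and 7.94 FPKM under KO_REG3B-Fc, 80.8 and 79.9 FPKM under KO_PBS and 15.7 and 14.7 FPKM under CTR_PBS. In KO_PBS all 23 tested acinar genes rose against CTR_PBS, as did 8 of 8 B and plasma cell genes, 7 of 7 myeloid and T cell genes and 6 of 8 stellate cell genes. The part of these markers in the changes below was not tested.

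KO_PBS against CTR_PBS asked what the knockout changed in islets labelled PBS. Degradation genes had the largest rises: Edem1, Sel1l, Derl3 and Herpud1 rose by 0.63 to 0.86 on the log2 scale. Of 15 chaperones 7 rose and 2 fell after scaling, against 1 and 14 without it. Of 7 ATF4 branch genes 3 rose and 2 fell after scaling, against 0 and 5 without it, and of 7 degradation genes 5 rose and 1 fell, against 3 and 3. The SERCA2 gene Atp2a2 had the largest fall. In all 18 of 36 genes rose and 6 fell. Of all 11789 genes tested 44.5% were called, 25% higher and 19.6% lower. The median change was 0.07. Without scaling 4 rose and 28 fell, where 90.1% of all genes were called, 8.66% higher and 81.5% lower. The groups did not overlap for 32 of 36 genes, against 72.7% of all genes. The authors' deposited table called 16 higher and 7 lower, where 25.9% of its 17061 genes were called, 14.7% higher and 11.2% lower.

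Sel1l measured 69.4 and 70.9 median-scaled FPKM in KO_PBS, against 38.0 and 38.4 in CTR_PBS (0.86 ± 0.04 SE, limma adjusted p = 7.4e-07). Edem1 measured 37.7 and 37.8 median-scaled FPKM in KO_PBS, against 20.4 and 20.3 in CTR_PBS (0.86 ± 0.04, adjusted p = 8.99e-07). Derl3 measured 51.7 and 52.9 median-scaled FPKM in KO_PBS, against 28.6 and 29.3 in CTR_PBS (0.83 ± 0.05, adjusted p = 3.63e-06). The groups were far apart for these genes, and all 3 also rose without scaling, by 0.34, 0.35 and 0.31. Herpud1 rose as well (0.63, adjusted p = 3.4e-06, and 0.09 without scaling, adjusted p = 0.0569). Syvn1, the ubiquitin ligase HRD1, rose by 0.25 after scaling (adjusted p = 0.00153) and fell by 0.27 without it (adjusted p = 0.000609). Derl2 did not pass (-0.04) and Derl1 fell by 0.14, and both fell without scaling.

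Creld2 was the chaperone with the largest rise, at 75.6 and 77.0 median-scaled FPKM in KO_PBS against 48.3 and 50.1 in CTR_PBS (0.62 ± 0.04, adjusted p = 6.11e-06), and it also rose without scaling (0.10, adjusted p = 0.0412). P4hb measured 437 and 451 median-scaled FPKM in KO_PBS against 340 and 333 in CTR_PBS (0.40 ± 0.04, adjusted p = 4.72e-05). Sdf2l1 (0.39, adjusted p = 0.000287) and Dnajb11, an ER DnaJ cochaperone (0.36, adjusted p = 0.000144), rose after scaling, while these 2 and P4hb fell without it. Hspa5 lay at the threshold: 466 and 444 median-scaled FPKM in KO_PBS against 418 and 426 in CTR_PBS (0.11 ± 0.04, adjusted p = 0.0487). Its call was lost without CTR_PBS replicate 1, CTR_PBS replicate 2 or KO_PBS replicate 1 (adjusted p = 0.233, 0.125 and 0.178), and without scaling it fell by 0.43. Canx and Dnajb9 fell by 0.19 each on the scaled values and fell without scaling as well.

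In the ATF4 branch Ppp1r15a (0.45, adjusted p = 7.47e-05), Atf3 (0.39, adjusted p = 0.00148) and Asns (0.38, adjusted p = 0.000109) rose after scaling. Asns measured 129 and 135 median-scaled FPKM in KO_PBS against 101 and 101 in CTR_PBS, and Atf3 stayed low at 2.13 and 1.95 against 1.28 and 1.36 in CTR_PBS. None of these 3 rose without scaling, where Asns fell by 0.15. The authors' DESeq2 values called Ppp1r15a (0.43, adjusted p = 3.37e-06) and Asns (0.34, adjusted p = 1.49e-11) higher, but not Atf3 (0.59, adjusted p = 0.141). Chac1, which degrades glutathione, fell on both scales, with 31.3 and 30.4 median-scaled FPKM in KO_PBS against 39.3 and 38.3 in CTR_PBS (-0.32, adjusted p = 0.00055). Atf4 itself was the other gene of the branch that fell, also on both scales. The authors' DESeq2 values called Atf4 lower as well (-0.16, adjusted p = 0.00402). Ddit3 measured 12.3 and 14.0 median-scaled FPKM in KO_PBS against 15.0 and 16.0 in CTR_PBS, and did not pass (-0.22 ± 0.08, adjusted p = 0.0512). It passed as lower in the fit without KO_PBS replicate 2 (-0.31, adjusted p = 0.0271) and without scaling (-0.72).

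Eif2ak3, the PERK gene, measured 20.5 and 20.6 median-scaled FPKM in KO_PBS against 15.0 and 14.8 in CTR_PBS (0.44 ± 0.05, adjusted p = 0.000125). Xbp1 measured 170 and 163 median-scaled FPKM in KO_PBS against 139 and 131 in CTR_PBS (0.29 ± 0.04, adjusted p = 0.000769). In these fits both rises rest on the scaling, without which Xbp1 fell by 0.24 and Eif2ak3 stood at -0.065 (adjusted p = 0.287). The authors' DESeq2 values called Xbp1 (0.25, adjusted p = 6.35e-07) and Eif2ak3 (0.44, adjusted p = 5.46e-10) higher. Atf6 and Ern1 did not pass. Atp2a2 measured 130 and 133 median-scaled FPKM in KO_PBS, against 224 and 229 in CTR_PBS (-0.78 ± 0.04, adjusted p = 8.56e-07), and fell on both scales. Sec61b rose by 0.23 (adjusted p = 0.00361) after scaling and fell by 0.30 without it.

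The other pathway lists had 39 genes higher and 12 lower of 91 tested, against 11 higher and 74 lower without scaling. Over all genes 25% were called higher and 19.6% lower after scaling, and 8.66% and 81.5% without it. Pdia2, a pancreatic disulphide isomerase (1.5, adjusted p = 7.13e-08), and the ER peroxiredoxin Prdx4 (1.30, adjusted p = 9.58e-08) led the oxidative folding list, and both also rose without scaling (0.97 and 0.77). Of 21 ATF4 targets 13 rose and 3 fell after scaling, against 5 and 14 without it. Wfs1, an ER protein of beta cells whose loss causes Wolfram syndrome, fell on both scales (-0.37, adjusted p = 0.000167, and -0.88 without scaling).

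KO_REG3B-Fc against KO_PBS asked what REG3B-Fc changed in the knockout. Of 7 degradation genes 0 rose and 5 fell after scaling, against 3 and 4 without it, with Sel1l, Derl3, Edem1 and Herpud1 lower on both scales. Of 7 ATF4 branch genes 0 rose and 5 fell, against 5 and 1 without scaling, so in these fits the direction of this branch turns with the scale. The authors' DESeq2 values called Chac1 (-0.48, adjusted p = 2.33e-06), Asns (-0.71, adjusted p = 2.88e-37) and Ppp1r15a (-0.22, adjusted p = 0.0295) lower. The rest of the branch did not pass there. Of 15 chaperones 5 rose and 5 fell, against 15 and 0 without scaling, and Atp2a2 rose on both scales. The 5 chaperones that rose were Hsp90b1, Hyou1, Canx, Pdia3 and Dnajb9. The authors' DESeq2 values called these 5 higher as well, by 0.20, 0.15, 0.14, 0.18 and 0.24 in that order. In all 7 of 36 genes rose and 18 fell, with a median change of -0.15. Of all 11789 genes 44.9% were called, 20% higher and 24.8% lower. Without scaling 29 rose and 5 fell, where 93.1% of all genes were called, 86.2% higher and 6.97% lower. The groups did not overlap for 30 of 36 genes, against 72.5% of all genes. The authors' deposited table called 8 higher and 14 lower, where 24.1% of its 17126 genes were called, 10.2% higher and 13.9% lower.

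Sel1l measured 36.4 and 37.2 median-scaled FPKM in KO_REG3B-Fc against 69.4 and 70.9 in KO_PBS (-0.91 ± 0.04 SE, adjusted p = 4.95e-07). Derl3 measured 29.0 and 26.6 against 51.7 and 52.9 in KO_PBS (-0.89 ± 0.05, adjusted p = 2.66e-06), and Edem1 20.6 and 20.0 against 37.7 and 37.8 in KO_PBS (-0.86 ± 0.04, adjusted p = 9.15e-07). These 3 genes and Herpud1 (-0.76, adjusted p = 1.2e-06) fell on both scales. Asns fell on both scales too, at 81.1 and 77.5 median-scaled FPKM in KO_REG3B-Fc against 129 and 135 in KO_PBS (-0.73 ± 0.04, adjusted p = 2.74e-06).

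Chac1 (-0.49, adjusted p = 4.66e-05), Ppp1r15a (-0.24, adjusted p = 0.00266), Xbp1 (-0.48, adjusted p = 4.56e-05) and Eif2ak3 (-0.52, adjusted p = 4.75e-05) fell after scaling. The authors' DESeq2 values also called these 4 lower, while none of the 4 fell without scaling. The chaperones P4hb (-0.34, adjusted p = 0.000119), Dnajb11 (-0.30, adjusted p = 0.00043) and Creld2 (-0.23, adjusted p = 0.00185) fell after scaling and rose without it. Sec61b (-0.17, adjusted p = 0.0137) likewise fell only after scaling. Sec61b also lost its call without KO_PBS replicate 2 or either KO_REG3B-Fc library (adjusted p of 0.0517 to 0.0622). Xbp1 measured 121 and 117 median-scaled FPKM in KO_REG3B-Fc against 170 and 163 in KO_PBS. Dnajb9 (0.21, adjusted p = 0.00971) and Ern1 (0.19, adjusted p = 0.0111) rose on both scales, and their calls were lost without KO_REG3B-Fc replicate 2 (adjusted p = 0.0607 and 0.056), which left 3 rises among the 36 genes. Hspa5, at 459 and 465 median-scaled FPKM in KO_REG3B-Fc against 466 and 444 in KO_PBS, did not pass (0.02, adjusted p = 0.665), nor did Ddit3, at 12.5 and 14.6 against 12.3 and 14.0 in KO_PBS (0.04, adjusted p = 0.692).

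Atp2a2 measured 220 and 221 median-scaled FPKM in KO_REG3B-Fc, against 130 and 133 in KO_PBS (0.75 ± 0.04, adjusted p = 1.15e-06), and rose on both scales. Of 91 other pathway genes 8 rose and 47 fell after scaling, and 77 rose and 10 fell without it. Over all genes 20% were called higher and 24.8% lower after scaling, and 86.2% and 6.97% without it. Pdia2 (-1.65, adjusted p = 2.93e-08), Prdx4 (-1.38, adjusted p = 5.01e-08), the ATF4 target Nupr1 (-1.59, adjusted p = 2.99e-08) and Fgf21 (-1.39, adjusted p = 1.66e-06) fell on both scales, and Wfs1 rose on both (0.39, adjusted p = 0.000127).

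**Figure D3:**
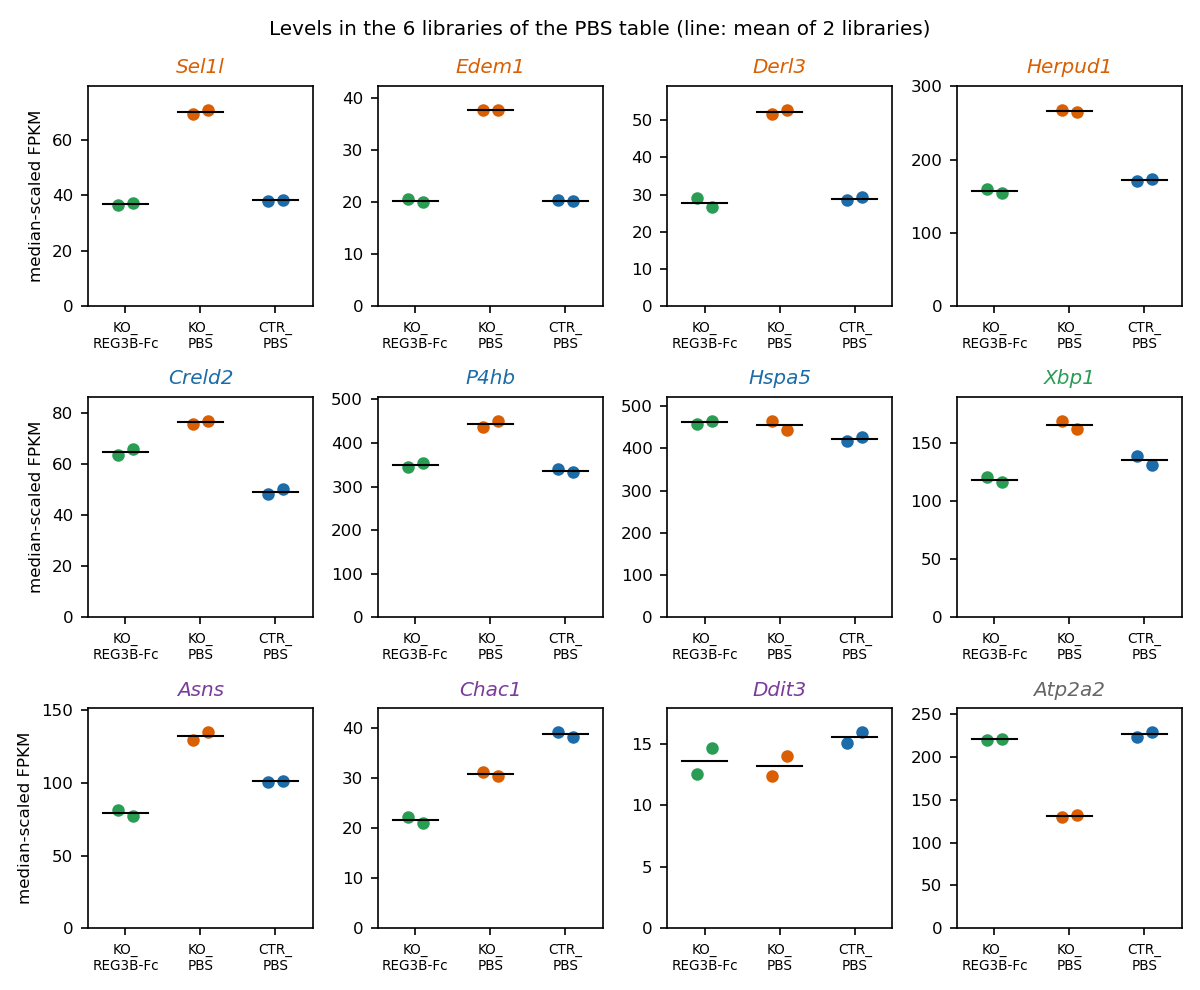
Median-scaled FPKM of 12 genes in the libraries of the PBS table, with KO_REG3B-Fc, KO_PBS and CTR_PBS from left to right, points for libraries, lines for group means and gene names coloured by role. Sel1l, Edem1, Derl3 and Herpud1 are high in KO_PBS, where Atp2a2 is low, and Chac1 is lowest in KO_REG3B-Fc.

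KO_REG3B-Fc against CTR_PBS, the comparison in which the acinar and beta cell shares lay closest, changed fewer of the 36 genes. These groups differ in both the knockout and the agent, so the parts of the 2 cannot be told apart. Of 7 ATF4 branch genes 4 fell and 1, Ppp1r15a, rose after scaling, against 3 lower and 2 higher without it. Of 7 degradation genes 0 rose and 1, Derl1, fell after scaling (median -0.10), against 0 and 0 without it. Sel1l, Edem1, Derl3 and Herpud1 did not pass. Of 15 chaperones 4 rose and 0 fell after scaling, against 11 and 0 without it. In all 5 genes rose and 6 fell. Of all 11789 genes 10.7% were called, 5.59% higher and 5.1% lower. The median change was -0.01, and without scaling 15 rose and 3 fell, where 19.6% of all genes were called, 16.8% higher and 2.87% lower. These counts rest on few libraries: with any 1 of the 4 left out, 1 to 3 genes rose and 2 to 3 fell. At an unadjusted p under 0.05, 10 were higher and 8 lower, where 25.6% of all genes passed. The groups did not overlap for 31 of 36 genes, against 57.7% of all genes.

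Chac1 measured 22.3 and 21.0 median-scaled FPKM in KO_REG3B-Fc, against 39.3 and 38.3 in CTR_PBS (-0.81 ± 0.04 SE, adjusted p = 2.66e-05). Asns measured 81.1 and 77.5 median-scaled FPKM against 101 and 101 in CTR_PBS (-0.35 ± 0.04, adjusted p = 0.0014). Both fell on both scales and whichever of the 4 libraries was left out. Trib3 measured 3.15 and 3.18 median-scaled FPKM against 4.16 and 5.02 in CTR_PBS (-0.42 ± 0.09, adjusted p = 0.0189), and its call was lost without CTR_PBS replicate 2 or either KO_REG3B-Fc library (adjusted p of 0.0945 to 0.118). Atf4 fell by 0.25 (adjusted p = 0.00842) and did not pass without scaling (-0.15, adjusted p = 0.0711). Ddit3 did not pass, at 12.5 and 14.6 median-scaled FPKM against 15.0 and 16.0 in CTR_PBS (-0.18, adjusted p = 0.201).

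Creld2 rose on both scales and whichever library was left out, with 63.5 and 66.1 median-scaled FPKM in KO_REG3B-Fc against 48.3 and 50.1 in CTR_PBS (0.39 ± 0.04, adjusted p = 0.000783). Sdf2l1 (0.21, adjusted p = 0.0286), Pdia6 (0.20, adjusted p = 0.0146) and Hsp90b1, the ER HSP90 (0.17, adjusted p = 0.0333), rose with all libraries, while Sdf2l1 and Pdia6 lost the call with any of the 4 left out (adjusted p of 0.0671 to 0.209) and Hsp90b1 with 3 of them (0.17 to 0.18). Hspa5 measured 459 and 465 median-scaled FPKM against 418 and 426 in CTR_PBS and did not pass (0.13, adjusted p = 0.0697), though it rose without scaling (0.23, adjusted p = 0.00596) and when only these groups were fitted (0.13, adjusted p = 0.0355). Derl1 fell by 0.16 (adjusted p = 0.0447) and Xbp1 by 0.19 (adjusted p = 0.03), at 121 and 117 median-scaled FPKM against 139 and 131 in CTR_PBS. Neither call held without scaling, or with any library left out (adjusted p of 0.114 to 0.252 for Derl1 and 0.0654 to 0.211 for Xbp1). No translocation or pump gene passed, and the smallest p there was that of Ssr1 (-0.10, adjusted p = 0.215).

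Of 21 ATF4 targets outside the 36 genes 12 fell and 1 rose after scaling, led by Nupr1 at 368 ± 6.34 FPKM in KO_REG3B-Fc and 816 ± 7.36 FPKM in CTR_PBS (SD, n = 2; -1.25, adjusted p = 2.1e-06, and -1.15 without scaling). Across the 6 other pathway lists 6 of 91 genes rose and 16 fell after scaling, against 14 and 5 without it. Over all genes 5.59% were called higher and 5.1% lower after scaling, and 16.8% and 2.87% without it. Without scaling 5 of the 21 ATF4 targets fell and 1 rose. Set beside the db table, where 22 of 23 such targets rose in db_REG3B, this comparison differs in model, control and label of the agent. It also spans the knockout, and the difference between the 2 comparisons was not tested. The acinar list still moved here, with 18 of 23 genes lower by a median of -0.29, and all 9 other hormone genes rose, by a median of 0.76. The part of these markers was not tested.

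Grouped by promoter letters, the PBS medians moved with the scale. For KO_PBS against CTR_PBS, the 11 genes with ERSE or ERSE-II had a median change of 0.25 (8 higher, 1 lower), the 5 with CARE 0.38 (3 and 1) and the 16 with neither 0.10 (8 and 2). Without scaling these medians were -0.27 (2 and 8), -0.15 (0 and 3) and -0.42 (2 and 12). For KO_REG3B-Fc against KO_PBS they were -0.21 (2 and 6), -0.49 (0 and 4) and -0.15 (3 and 9), and without scaling 0.41 (9 and 2), 0.12 (2 and 2) and 0.48 (13 and 2). For KO_REG3B-Fc against CTR_PBS they were 0.08 (3 and 0), -0.35 (0 and 3) and 0.01 (2 and 2), and without scaling 0.18 (7 and 0), -0.25 (1 and 3) and 0.11 (6 and 0). The CARE set was thus on the lower side of that comparison on both scales. In the db table the medians were 0.35 (11 and 0), 0.36 (4 and 0) and 0.24 (14 and 0), and in the HFD table -0.13, 0.08 and -0.13 with 0 called. Herpud1 counts in both element sets. These splits are descriptions of small sets and were not tested.

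**Figure D4:**
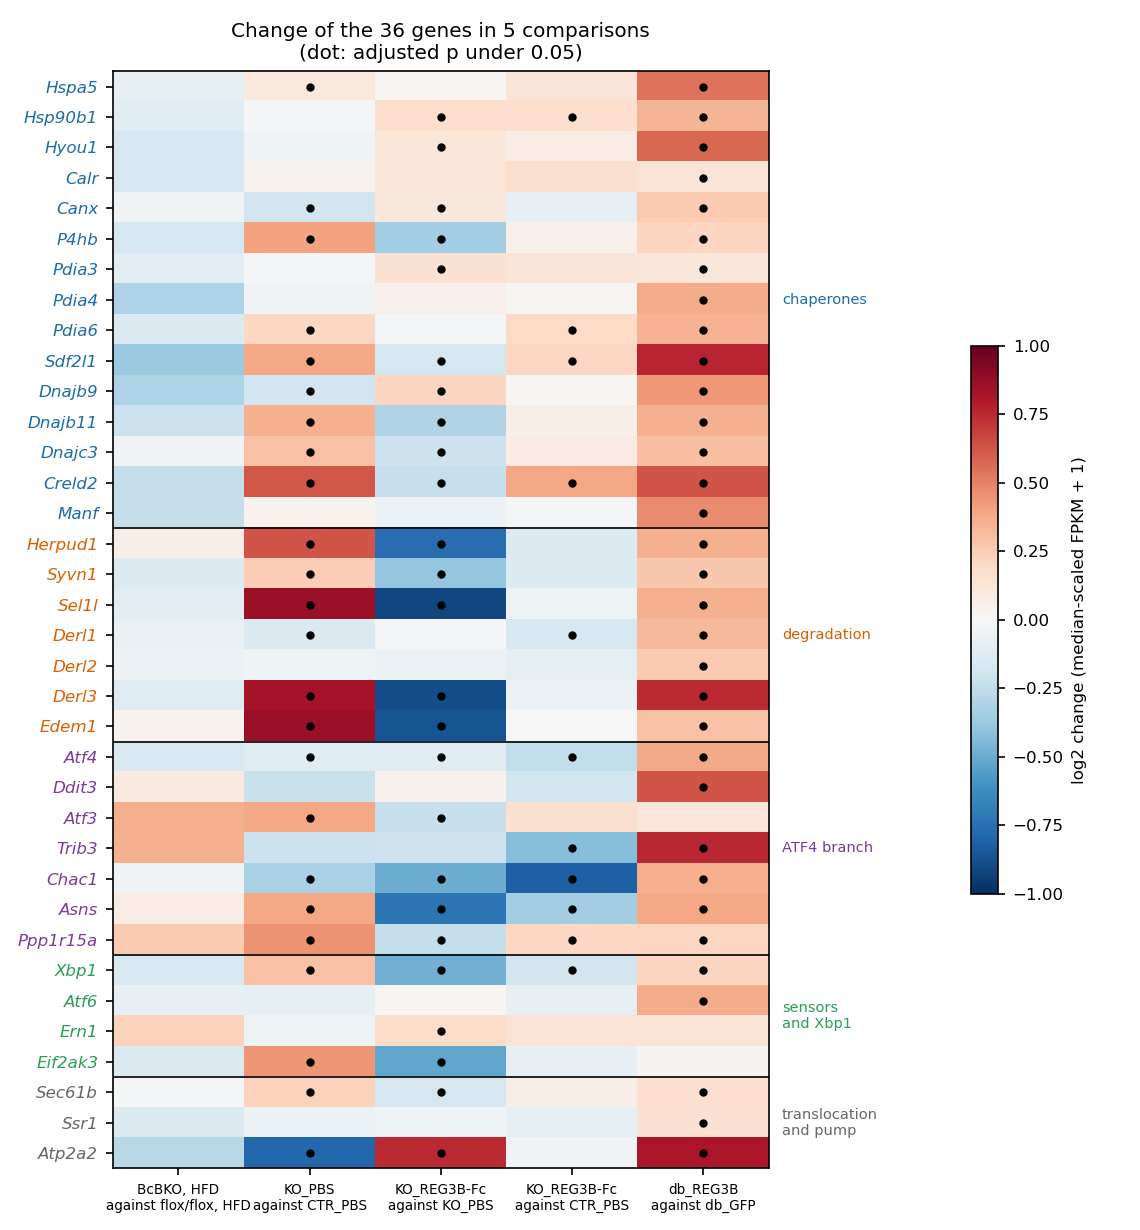
Log2 change of median-scaled FPKM for the 36 genes (rows, by role) in 5 comparisons (columns), red for higher and blue for lower in the group named first, with a dot where the adjusted p is under 0.05. The db column is red throughout with 33 dots, the HFD column has none, and the KO_PBS column shows 5 of 7 degradation genes high and Atp2a2 low.

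In the HFD table, the libraries labelled BcBKO against flox/flox, none of the 36 genes passed. Limma called 0 higher and 0 lower, with 0 at an unadjusted p under 0.05 in either direction. Of all 11560 genes tested 0.00865% (1 gene) were called, and 2.59% had an unadjusted p under 0.05. The authors' deposited table also called 0 of the 36, where 0.164% of its 12822 genes were called. The groups did not overlap for 7 of 36 genes (19.4%), against 27.3% of all genes. The median change was -0.12, against 0.003 over all genes. All 15 chaperones were on the lower side in libraries labelled BcBKO, with a median of -0.17, while Canx and Dnajc3 were on the higher side without scaling (0.05 each). The groups did not overlap for 1 of the 15. The acinar list took 3.29 and 3.27% of summed FPKM in libraries labelled BcBKO, against 2.12 and 7.94% in flox/flox. Its 22 tested genes had a median change of -0.41, with 0 passing. All 9 endothelial genes were on the higher side (median 0.29), again with 0 passing. The part of these markers was not tested.

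Hspa5 measured 1298 and 635 FPKM in libraries labelled BcBKO, against 1155 and 718 FPKM in flox/flox (-0.09 ± 0.40 SE, adjusted p = 1 from limma). The chaperone with the smallest p, Dnajb9, which holds IRE1 inactive with BiP, measured 175 and 204 FPKM against 198 and 245 FPKM in flox/flox (-0.31 ± 0.19). The groups overlapped for both genes. Xbp1 measured 183 and 171 FPKM in libraries labelled BcBKO against 186 and 185 FPKM in flox/flox (-0.15 ± 0.12). Ern1 measured 27.6 and 23.6 FPKM against 21.7 and 19.0 FPKM in flox/flox (0.23 ± 0.12). Xbp1 and Ern1 did not overlap between the groups, yet neither passed. Syvn1 (-0.14 ± 0.11), Atf4 (-0.15 ± 0.15) and Atp2a2 (-0.28 ± 0.17) had the smallest p of their roles. Of the other pathway genes, 0 of 86 passed in limma.

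Several genes differed widely by replicate number. Atf3 measured 74.8 FPKM in BcBKO replicate 1 and 0.70 FPKM in replicate 2, and 45.2 FPKM in flox/flox replicate 1 and 0.56 FPKM in replicate 2. Ppp1r15a measured 184 and 29.5 FPKM in the libraries labelled BcBKO, against 148 and 22.4 FPKM in flox/flox. Ddit3 measured 85.5 and 25.5 FPKM, against 57.5 and 29.3 FPKM in flox/flox (0.10 ± 0.60). In each case replicate 1 was the high library of its group. All 7 ATF4 branch genes were higher in replicate 1 than in replicate 2 of both groups, and 14 of 15 chaperones were lower, the exception being Hspa5.

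Immediate early genes moved with the replicate number too, summing to 2982 and 237 FPKM in replicates 1 and 2 labelled BcBKO and to 2134 and 149 FPKM in those of flox/flox. Their part in the stress gene levels was not tested. Taking the libraries numbered 1 and 2 apart, with no test, Ddit3 differed by 0.50 between libraries numbered 1 and by -0.30 between those numbered 2, and Hspa5 by 0.10 and -0.29. Chaperone medians were -0.22 and -0.17 in the same order, and 13 of 15 were lower in the library labelled BcBKO at both numbers. No share over all genes was computed for such counts of direction. In limma 0 of the 15 chaperones had an unadjusted p under 0.05.

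**Figure D5:**
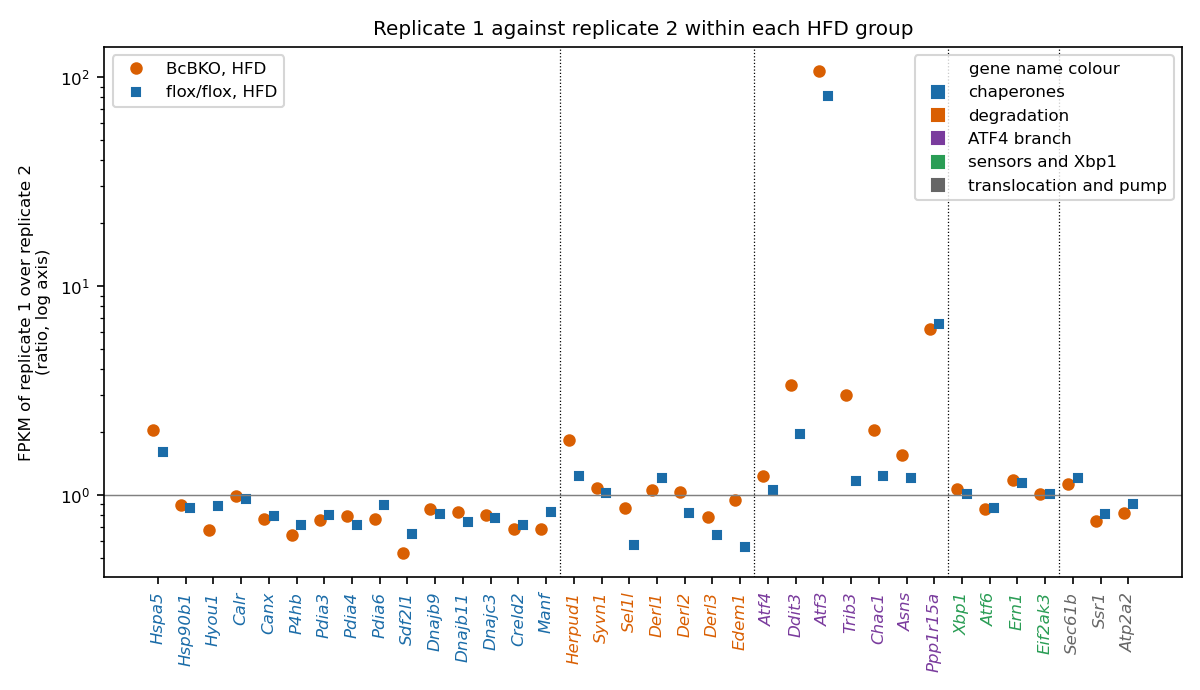
FPKM of replicate 1 divided by FPKM of replicate 2 (log axis) for the 36 genes within the libraries labelled BcBKO (circles) and within flox/flox (squares), with gene names coloured by role. Atf3 stands at 107 and 80.8 and Ppp1r15a at 6.23 and 6.6, while 14 of 15 chaperones lie under 1 in both groups.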

How the data were processed

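Islet messenger RNA was sequenced in paired-end mode on the BGISEQ-500 per the labels. FPKM values for 19 libraries were deposited by the authors, with TPM values deposited for the 4 HFD libraries. Log2 fold changes and p-values of 4 comparisons were likewise deposited, made with DESeq2 for db and PBS per the file headers. The submitters' processing notes name the build GRCm38.p6, while the aligner and counting program are not given in the sources used here. Depth is unknown, so no counting interval was computed. No value column (0) lacked a sample.

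A gene was tested if 2 or more libraries reached 1 FPKM. Values were taken as log2(median-scaled FPKM + 1). All groups of a table entered 1 limma fit (version 3.58.1, R 4.3.3, moderated with a mean trend), with two-sided p-values adjusted by Benjamini-Hochberg over all genes and a threshold of 0.05. A log2 change with a pseudocount of 1 understates changes of low genes. The fit was tested on simulated data. Gene members and lists were chosen with earlier results of these data known. In each comparison Hspa5, Xbp1 and Ddit3 were named, with the passing genes of the 3 largest changes per role (4 for chaperones), or the smallest p where none passed, and the 2 largest passing genes of each other list. Genes named outside this rule were chosen after their values were seen. Promoters were scanned in Python 3.11.15. Alternatives were the deposited scale, no filter, a pseudocount of 0.1, deposited TPM, only the groups compared, a replicate block and leaving out each library. The HFD differences by replicate number were added after the data were seen.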

Additional observations from a re-analysis of the deposited data

Results flagged for a closer look

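Among the 36 genes in the 5 WT libraries, 4 had a library whose gap to its nearest neighbour exceeded 0.71 of the whole range. Chance flags about 1 in 20 such groups. Atf3 in WT replicate 4 stood at 28.8 FPKM, with the next library at 1.66 FPKM, and Ppp1r15a in the same library at 35.95 FPKM, with the next at 14.2 FPKM. Derl3 in WT replicate 4 stood at 12.8 FPKM, below the next library at 31.8 FPKM. Trib3 in WT replicate 5 stood at 5.75 FPKM, with the next at 3.16 FPKM. The groups of 2 libraries in the other tables are too small for this rule.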

How the results depend on the processing

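Without median scaling (deposited scale), 4 genes rose and 28 fell for KO_PBS against CTR_PBS, 29 and 5 for KO_REG3B-Fc against KO_PBS, and 15 and 3 for KO_REG3B-Fc against CTR_PBS. With no filter on low values the last comparison gave 2 and 2. Leaving out 1 library gave 3 to 7 rises for KO_REG3B-Fc against KO_PBS, and 1 to 3 rises and 2 to 3 falls against CTR_PBS. The median WT level was 64.8 FPKM after median scaling. The cause was not tested. The other counts stayed within 1.5 times, among them 28 to 33 rises in the db table and 0 calls on HFD. Among genes named by the rule, the following changes had the opposite sign on the deposited scale. For KO_PBS against CTR_PBS they were Hspa5 (-0.43), Xbp1 (-0.24), P4hb (-0.13), Sdf2l1 (-0.14), Dnajb11 (-0.17), Ppp1r15a (-0.059), Asns (-0.15), Eif2ak3 (-0.065) and Sec61b (-0.30). For KO_REG3B-Fc against KO_PBS they were Xbp1 (0.15), P4hb (0.29), Dnajb11 (0.32), Creld2 (0.39), Chac1 (0.12), Ppp1r15a (0.36), Eif2ak3 (0.078) and Sec61b (0.46). With 1 library left out of that comparison, Hspa5 spanned -0.011 to 0.058 (lowest without KO_PBS replicate 2), and Ddit3 turned negative without KO_PBS replicate 1 (-0.039) or KO_REG3B-Fc replicate 2 (-0.058). With 1 HFD library left out, Hspa5 spanned -0.59 to 0.41 and Ddit3 -0.74 to 0.94. Hspa5 turned positive without BcBKO replicate 2 (0.41), without flox/flox replicate 1 (0.21) and between libraries numbered 1 (0.10), and Ddit3 negative without BcBKO replicate 1 (-0.74), without flox/flox replicate 2 (-0.34) and between libraries numbered 2 (-0.30). Of 613 values of named genes under alternatives, 534 kept direction and side of the threshold. With replicate number as a block the counts were 17 and 7, 6 and 18, and 5 and 6 in the PBS comparisons, 33 and 0 in db, and 0 on HFD. The block took Hspa5 in KO_PBS over the threshold (adjusted p = 0.0539) and Ddit3 under it (0.0106). The labels share only numbers, and same-numbered libraries deviated together at r = 0.67 across genes on HFD and at -0.05 to 0.05 elsewhere. Groups of 2 libraries limit every p-value here, and a library left alone in its group was assumed to vary like the others.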
